A study of Mus musculus with 30 samples.

Results

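Troponins, tropomyosin and their thick filament and M-band partners were followed through 30 arrays of mouse left ventricle. The 7 members were cardiac troponin T (Tnnt2), adult cardiac troponin I (Tnni3), slow skeletal troponin I (Tnni1), cardiac and slow skeletal troponin C (Tnnc1), alpha-tropomyosin (Tpm1), cardiac myosin-binding protein C (Mybpc3) and myomesin 1 (Myom1). A probe set was taken where the platform annotation gave it 1 of these gene symbols and no other. Each gene had 1 such probe set, which gave 7 of the 12488 probe sets on the array. The working name of the group, troponins and thick filament partners, is loose: troponins and tropomyosin lie on the thin filament, Mybpc3 on the thick filament, and Myom1 crosslinks thick filaments at the M-band.

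The ventricles came from C57BL/6 mice, wild type or labelled HCM, of both sexes, killed at 2 months of age after free feeding on a soy-based or a casein-based diet. Each array carried RNA pooled from 2 animals. There were 4 arrays each of male and female wild type on soy, wild type on casein and HCM on casein, and 3 arrays each of male and female HCM on soy. The labels do not spell out HCM and name no mutation, transgene or promoter, so which cells carry the change is not stated in the sources used here. The arrays are called replicates of pooled RNA, and p-values measure the spread between these pools, not between single mice.

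In a relaxed sarcomere, tropomyosin lies along the actin filament and keeps myosin from it. Calcium binds troponin C, the inhibitory grip of troponin I is released, and troponin T, which ties the complex to tropomyosin, passes the movement on. Myosin-binding protein C holds myosin heads near the thick filament backbone until it is phosphorylated. The heart before birth uses the slow skeletal troponin I encoded by Tnni1 and replaces it after birth with the cardiac form encoded by Tnni3, which has an amino-terminal extension that protein kinase A phosphorylates. Mutations of several of these genes, MYBPC3 foremost, cause hypertrophic cardiomyopathy in people.

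The promoter stretches of the adult and fetal troponin I genes and of Mybpc3 and Myom1, the pair whose response to HCM differed most between diets, are shown from RefSeq (GRCm38.p6). Each runs 5′ to 3′ in the direction of transcription over the 200 bases before the listed start. All 7 members had an entry. Capitals mark matches to 6 short motifs searched on both strands.
Tnni3: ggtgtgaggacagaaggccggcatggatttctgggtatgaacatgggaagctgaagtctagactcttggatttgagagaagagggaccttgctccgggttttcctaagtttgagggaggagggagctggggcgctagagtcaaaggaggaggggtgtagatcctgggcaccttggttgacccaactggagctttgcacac
Tnni1: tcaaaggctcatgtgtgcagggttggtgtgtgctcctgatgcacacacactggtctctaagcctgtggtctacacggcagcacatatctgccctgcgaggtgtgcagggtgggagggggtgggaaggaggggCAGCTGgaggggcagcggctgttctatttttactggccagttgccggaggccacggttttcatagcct
Mybpc3: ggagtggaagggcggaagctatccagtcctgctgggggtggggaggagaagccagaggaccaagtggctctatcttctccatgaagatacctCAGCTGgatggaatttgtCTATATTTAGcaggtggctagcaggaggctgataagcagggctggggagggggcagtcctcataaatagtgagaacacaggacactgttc
Myom1: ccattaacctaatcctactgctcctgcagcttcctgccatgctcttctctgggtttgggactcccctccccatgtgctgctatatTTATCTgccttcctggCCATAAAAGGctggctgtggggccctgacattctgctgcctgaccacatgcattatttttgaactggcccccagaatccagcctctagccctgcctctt
The Tnni3 stretch (chr7:4522529-4522728, minus strand) lies largely inside the gene's RefSeq span, chr7:4518305-4522718, and held no match. The Tnni1 stretch (chr1:135799221-135799420, plus strand) precedes the first of 2 listed starts, inside the span chr1:135783033-135810989, and held the E-box CAGCTG 68 bases before the start. The Mybpc3 stretch (chr2:91117944-91118143, plus strand; gene chr2:91118114-91136516) held CAGCTG at 108 bases and a MEF2 motif at 90 bases before the start. The Myom1 stretch (chr17:71019357-71019556, plus strand; gene chr17:71003332-71126856) held the reverse complement of the GATA motif at 115 bases and a CArG box at 99 bases before the start.

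Such matches are common and describe letters, not bound sites. Of 32851 RefSeq windows of this length, TATAAA stood in 9.96%, the M-CAT motif CATTCC in 10.1%, CAGCTG in 10.9%, the GATA motif AGATAA in 7.8%, the MEF2 motif in 2.29% and the CArG box in 1.18%. Of the members not printed, Tnnt2 held M-CAT, CAGCTG and GATA matches, and Tnnc1 and Tpm1 held 1 M-CAT match each. The other genes lie at chr1:135836315-135852268 (Tnnt2), chr14:31208312-31211729 (Tnnc1) and chr9:67022590-67049672 (Tpm1). Tnni1 and Tnnt2 are thus near neighbours on chromosome 1.

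Several features of the arrays bear on every value here. The deposited values are log2 expression, and levels of different probe sets cannot be set against each other. Array medians were close, 6.2 to 6.22 on soy and 6.11 to 6.19 on casein, but the upper end was not: the 99th percentile of all probe sets was 10.64 to 11.11 on the 14 soy arrays and 11.14 to 11.53 on the 16 casein arrays. The spike-in control Dap read 7.18 to 8.07 on the casein HCM arrays and 4.03 to 4.70 on all others, and in casein wild type the control RNAs set replicates 1 and 2 (set A) apart from 3 and 4 (set B). Such sets of arrays follow diet and genotype, so they and the groups cannot be told apart. For the HCM and diet comparisons of the members, values after quantile normalization, which forces all arrays onto 1 distribution, are given where that step changed a call and for the larger differences. A change of direction in a difference that passed neither before nor after that step is not listed. The median over all probe sets moved by no more than 0.03 in any comparison of HCM or diet. Of the members, the Tpm1 probe set (6.35 to 7.52) and the Tnni1 probe set (7.04 to 8.25) read nearest to the array medians. Detection calls were not used, and how well these dimmer probe sets report their transcripts was not tested.

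Marker genes of cell types were read on each array as a description, which does not test the tissue label, since levels of different probe sets cannot be compared. The mean log2 level of 7 measured ventricular markers was 11.12 to 12 over the arrays, and that of 10 skeletal muscle markers was 5.94 to 6.60. Of the skeletal markers, Pvalb alone read 9.22 to 10.52. Ventricular markers moved with several of the results: 6 of 7 were higher in HCM on soy and 7 of 7 on casein in wild type, with 0 lower in either. They were mixed in HCM on casein, with 3 of 7 higher and 2 lower. On casein in HCM 5 of these markers were higher and 1 lower. On single arrays their mean was 11.12 to 11.60 in soy wild type, 11.72 to 11.82 in soy HCM, 11.78 to 11.98 in casein wild type and 11.83 to 12 in casein HCM. Of all probe sets 24.7% passed in HCM on soy and 49% in HCM on casein. The share was 46% on casein in wild type and 61.1% on casein in HCM. Some markers of other cell types passed as well. In HCM on casein 5 of 6 smooth muscle and pericyte markers were higher and 0 lower, 4 of 7 fibroblast markers were higher and 1 lower, and 0 of 6 endothelial markers were higher and 3 lower. Endothelial markers were 3 higher and 0 lower in HCM on soy, and 4 higher and 0 lower on casein in wild type. On casein in HCM they were 1 higher and 3 lower, and 5 of 6 smooth muscle and pericyte markers were again higher. The endothelial counts in HCM on casein and on casein in HCM lay near the shares over all probe sets. Of 5 macrophage markers, 1 was higher and 3 lower on casein in wild type. The smooth muscle and pericyte mean was 6.95 to 7.44 over the arrays outside casein HCM and 7.63 to 8.02 in casein HCM, and the endothelial mean was 7.36 to 8.02 in soy wild type, 7.97 to 8.13 in soy HCM, 7.98 to 8.14 in casein wild type and 7.67 to 7.89 in casein HCM. The part of these markers in the results below was not tested, and in RNA from whole tissue a smaller share of cardiomyocytes and less transcript per cardiomyocyte cannot be told apart.

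Array 2 of male soy wild type stood at the end of its group for every member, lowest for Tnnt2, Tnni3, Tnnc1, Tpm1, Mybpc3 and Myom1 and highest for Tnni1. It also had the lowest 99th percentile of all arrays, 10.64. Without it, 4 members passed in HCM on soy in place of 6 (23.5% of all probe sets). In HCM on casein 5 passed in place of 2 (54.4%), since Tnnt2, Tnni1 and Tpm1 gained calls. The array is not part of that comparison, and these differences stayed at 0.13, -0.17 and 0.18. All groups share 1 estimate of the spread, and the SE of Tnnt2 went from 0.06 to 0.05. The count of members past the threshold stayed at 5 in the mean HCM effect (34.7% of all probe sets). It also stayed at 7 for diet in wild type (50.9%) and 4 in the interaction of HCM with diet (49.6%).

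**Figure D1:**
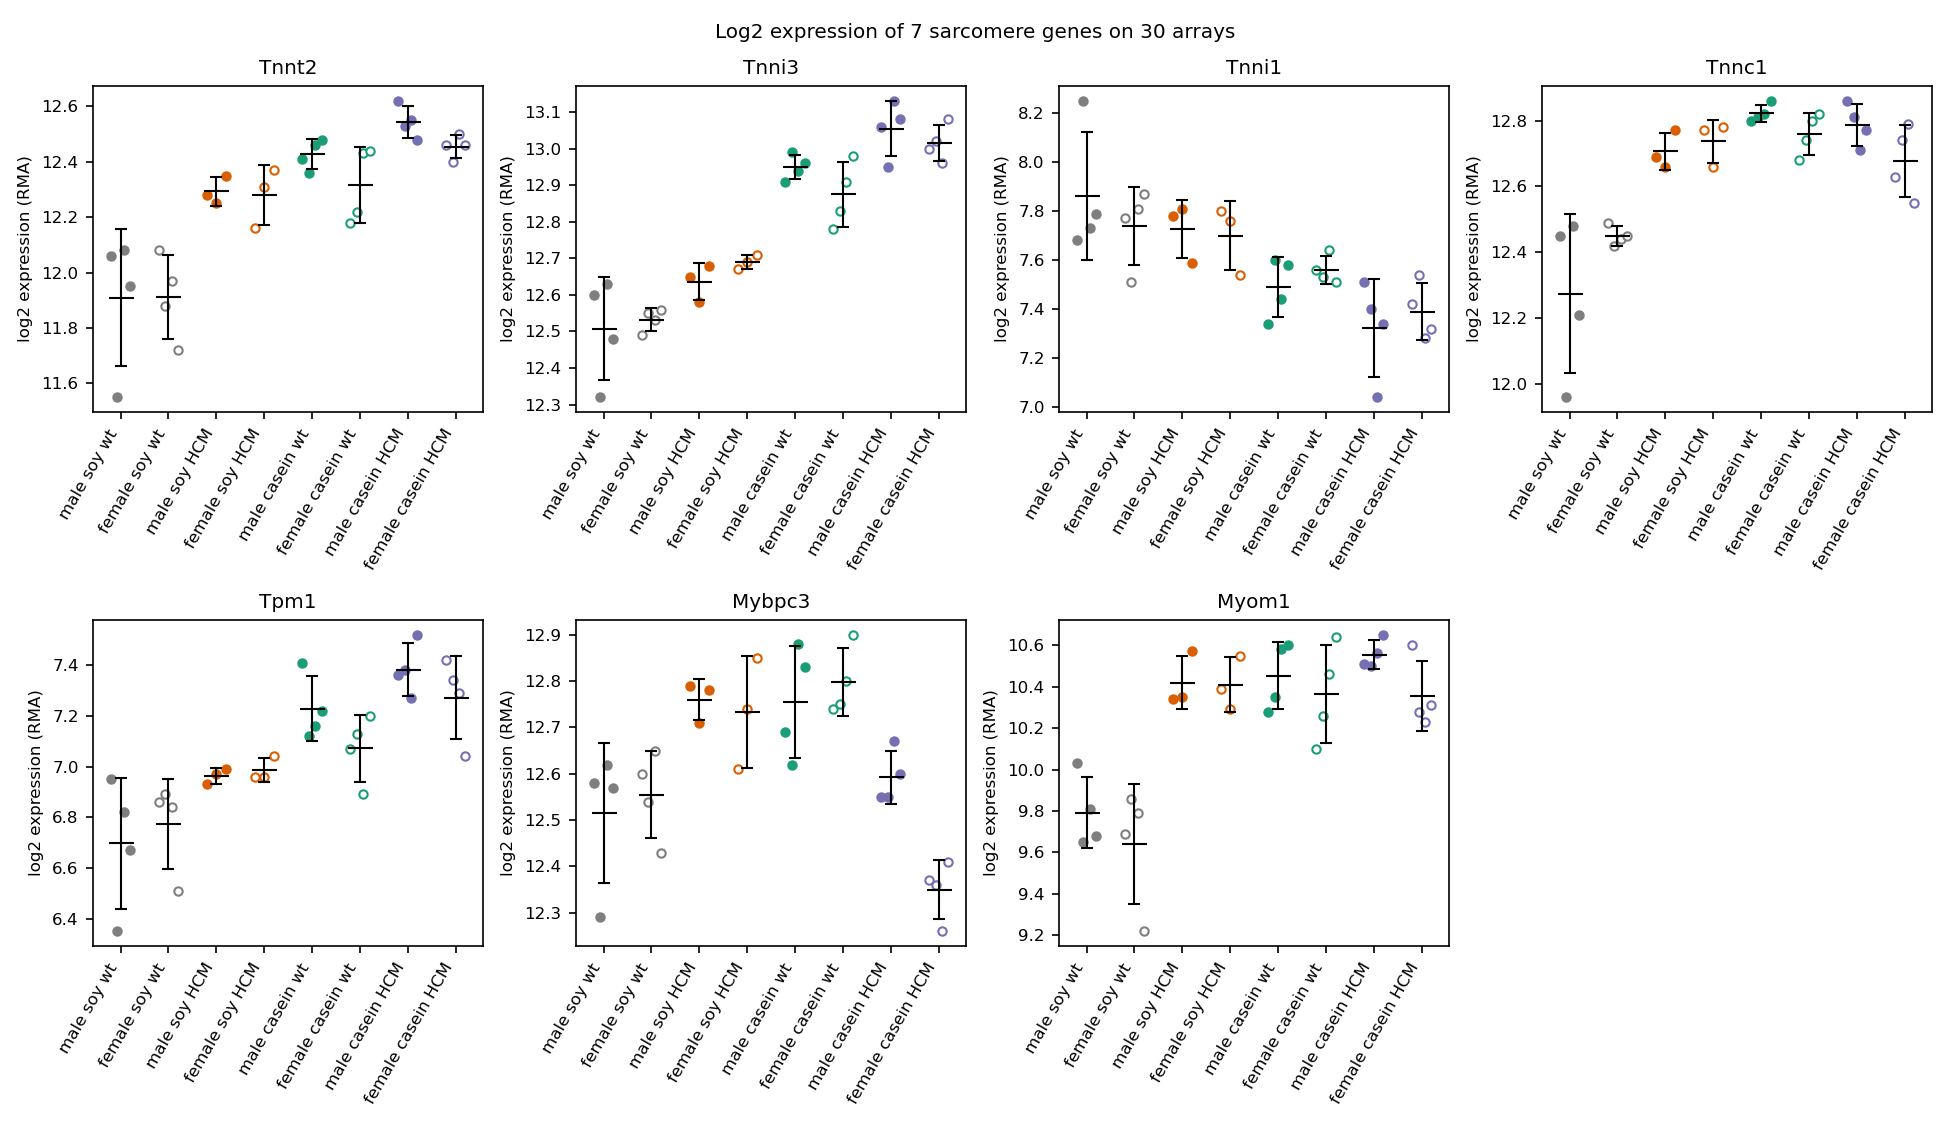
Log2 expression of the 7 members on each of the 30 arrays, 1 panel per gene with its own axis, by group; points are arrays, filled for males and open for females, and bars give the group mean and SD. Soy wild type is lowest for Tnnt2, Tnni3, Tnnc1, Tpm1 and Myom1, and Mybpc3 is lower in casein HCM, with a mean of 12.47, than in casein wild type, with 12.78.

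On the soy diet, HCM ventricles held more transcript of most members than wild type did. Myom1 rose most, 1.62-fold, followed by Tnnt2, 1.30-fold, and Tnnc1, 1.28-fold. Tnni3, Tpm1 and Mybpc3 rose less, and Tnni1 did not pass the test. In all, 6 of 7 members were higher and 0 lower (Benjamini-Hochberg adjusted p under 0.05 over all probe sets in limma), where 24.7% of all probe sets passed, 12.3% in each direction.

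Myom1 read 10.03, 9.65, 9.81 and 9.68 in male and 9.69, 9.86, 9.79 and 9.22 in female soy wild type. In soy HCM it read 10.34, 10.35 and 10.57 in males and 10.39, 10.29 and 10.55 in females. Every HCM array stood above every wild-type array, and the difference was 0.70 ± 0.09 (SE, log2; 6 against 8 arrays; adjusted p = 8.72e-06). It was of like size in males, 0.63 ± 0.13 (adjusted p = 0.0038, where 12.5% of all probe sets passed), and in females, 0.77 ± 0.13 (adjusted p = 0.00117, where 4.07% passed). After quantile normalization it was 0.66, and without array 2 of male soy wild type 0.68.

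Tnnt2, which anchors the troponin complex, had a lowest, median and highest value of 11.55, 11.96 and 12.08 in soy wild type and 12.16, 12.29 and 12.37 in soy HCM. The calcium sensor Tnnc1 had 11.96, 12.45 and 12.49 in soy wild type and 12.66, 12.73 and 12.78 in soy HCM. Neither gene's groups overlapped, as for Myom1, and 4.35% of all probe sets likewise had every soy HCM array above every soy wild-type array. The difference was 0.37 ± 0.07 for Tnnt2 (adjusted p = 0.000378) and 0.36 ± 0.06 for Tnnc1 (adjusted p = 0.000142). Quantile normalization brought these to 0.26 and 0.24, both still past the threshold, and leaving out array 2 of male soy wild type to 0.31 for each.

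The smaller rises were less settled. Mybpc3 was 12.54 ± 0.12 (SD, n = 8) in soy wild type and 12.75 ± 0.08 (n = 6) in soy HCM, a difference of 0.21 ± 0.06 (adjusted p = 0.00866) that fell to 0.08 (adjusted p = 0.173) after quantile normalization and was 0.17 (adjusted p = 0.017) without array 2 of male soy wild type. Adult troponin I (Tnni3) differed by 0.14 ± 0.05 (adjusted p = 0.0321), which turned to -0.03 (adjusted p = 0.677) after that step and was 0.11 (adjusted p = 0.0698) without array 2 of male soy wild type. Tpm1 differed by 0.24 ± 0.08 (adjusted p = 0.0315), and by 0.18 (adjusted p = 0.0652) without that array. Tnni1, the fetal troponin I, was 7.80 ± 0.21 in soy wild type and 7.71 ± 0.12 in soy HCM, with overlapping groups (difference -0.09, 95% interval -0.26 to 0.08, adjusted p = 0.444). With the sets of arrays as a random block, Myom1 (adjusted p = 0.00637) and Tnnc1 (adjusted p = 0.0392) passed. Tnnt2 (0.0533), Mybpc3 (0.196), Tnni3 (0.33) and Tpm1 (0.333) did not. On soy each set holds 1 genotype only, so this block cannot part a set from HCM. Fitting only the soy groups also ended the calls of Tnni3 (adjusted p = 0.0687) and Tpm1 (0.0667). Leaving out single arrays ended the call of Tnni3 in 7 cases (arrays 2 and 4 of male wild type, 1 and 3 of male HCM, 1 of female wild type, 2 and 3 of female HCM; adjusted p up to 0.0828) and that of Tpm1 in 5 (array 2 of male wild type, 2 and 3 of male HCM, 4 of female wild type, 3 of female HCM; up to 0.0772).

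**Figure D2:**
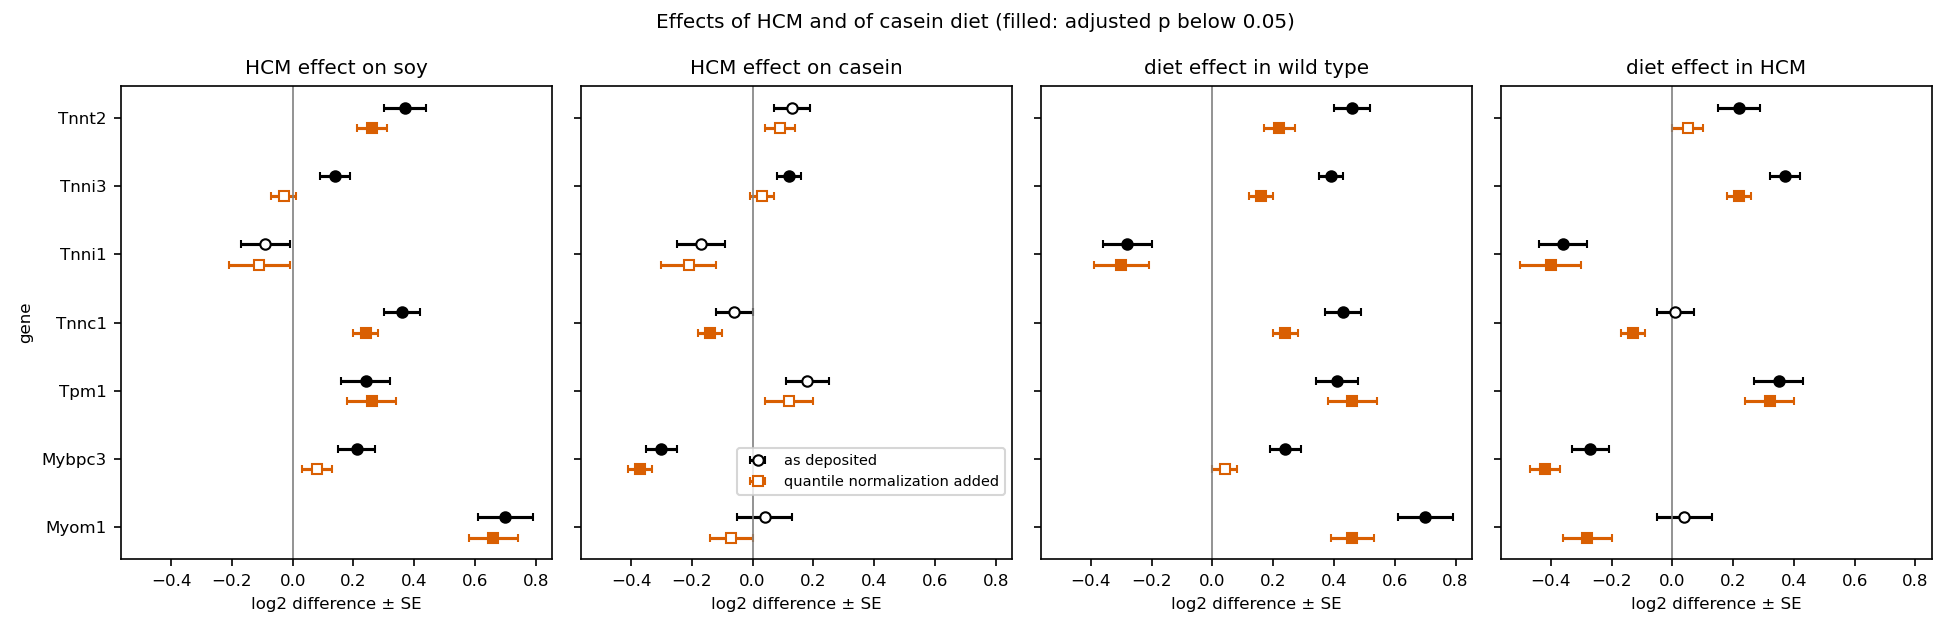
Log2 differences ± SE for the 7 members in 4 comparisons, HCM minus wild type on each diet and casein minus soy in each genotype, from the deposited values (black circles) and after quantile normalization (orange squares); filled symbols passed an adjusted p of 0.05. Mybpc3 lies to the right of 0 for HCM on soy, at 0.21, and to the left for HCM on casein, at -0.30, and most black circles for casein in wild type lie to the right of the orange squares.

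On casein the same comparison gave another picture. Mybpc3 was lower in HCM, 1.24-fold, where on soy it had been higher. Myom1, Tnnt2 and Tnnc1, the 3 genes whose groups stood apart on soy, did not pass the test. Of 7 members, 1 was higher and 1 lower, in a comparison where 49% of all probe sets passed, 25% higher and 24% lower.

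Mybpc3 read 12.69, 12.62, 12.88 and 12.83 in male and 12.74, 12.75, 12.80 and 12.90 in female casein wild type. In casein HCM it read 12.55, 12.55, 12.67 and 12.60 in males and 12.37, 12.36, 12.26 and 12.41 in females. The female groups stood apart and the male groups overlapped. The difference was -0.30 ± 0.05 over both sexes (adjusted p = 2.76e-05), -0.45 ± 0.07 in females (adjusted p = 4.12e-05) and -0.16 ± 0.07 in males (adjusted p = 0.103). Of all probe sets 33% passed in females and 31.6% in males. Whether the female and male differences on casein differed from each other was not tested. After quantile normalization the value over both sexes was -0.37 (adjusted p = 4.82e-08), and it was -0.23 without set B of casein wild type and -0.38 without set A.

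Adult troponin I (Tnni3) was the member that rose, by 0.12 ± 0.04 (adjusted p = 0.0235), from 12.91 ± 0.08 to 13.04 ± 0.06 (SD, n = 8 each). That rise did not hold after quantile normalization, at 0.03 (adjusted p = 0.502), nor with the sets as a block (adjusted p = 0.172), without set A (0.183), or without array 3 of male casein HCM or array 1 of female casein wild type (up to 0.0551). Tnni1 stood at 7.53 ± 0.10 and 7.35 ± 0.16 (difference -0.17, adjusted p = 0.0699), Tpm1 at 7.15 ± 0.15 and 7.33 ± 0.14 (difference 0.18, adjusted p = 0.0509), and Tnnt2 at 12.37 ± 0.11 and 12.50 ± 0.07 (difference 0.13, adjusted p = 0.102). These lay close to the threshold, and fitting only the casein groups carried all 3 past it. Tnnt2 was 0.21 (adjusted p = 0.0345) against set A alone, which had a mean of 12.29, where set B had 12.45. Over 42 settings the Tnnt2 difference ran from 0.05 to 0.21, and it passed in 3 of them. Tnnc1 stood at -0.06 ± 0.06 (adjusted p = 0.382) as deposited and passed as lower after quantile normalization, at -0.14 (adjusted p = 0.00507).

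Myom1 showed how much the wild-type arrays on casein varied. It read 10.28, 10.35, 10.58 and 10.60 in male and 10.10, 10.26, 10.46 and 10.64 in female casein wild type, and 10.51, 10.50, 10.56 and 10.65 in male and 10.60, 10.28, 10.23 and 10.31 in female casein HCM. The groups overlapped, and the difference was 0.04 ± 0.09 (95% interval -0.13 to 0.22, adjusted p = 0.693). Within casein wild type, the 4 arrays of set A, 10.10 to 10.35, lay below the 4 of set B, 10.46 to 10.64 (difference 0.32 ± 0.11, adjusted p = 0.0529, where 13.5% of all probe sets passed). Set B also read higher than set A for Tnnt2, by 0.16 (adjusted p = 0.225), and Mybpc3, by 0.15 (adjusted p = 0.14), neither past the threshold. The share of all probe sets with every array of set A below every array of set B was not computed. Against set A alone Myom1 in casein HCM differed by 0.21 (adjusted p = 0.0972), and against set B alone by -0.12 (adjusted p = 0.357).

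The difference between the diets in the HCM response was tested directly as an interaction. For 4 of 7 members the HCM response was lower on casein than on soy, and for 0 it was higher, where 45.2% of all probe sets passed, 23.9% higher and 21.3% lower. Myom1 differed by -0.65 ± 0.13 (95% interval -0.92 to -0.39, adjusted p = 0.000171). Mybpc3, the only member that passed the test in opposite directions on the 2 diets as deposited, differed by -0.52 ± 0.08 (interval -0.67 to -0.36, adjusted p = 5.76e-06). Its rise on soy did not pass after quantile normalization (0.08, adjusted p = 0.173) or with the sets of arrays as a block (adjusted p = 0.196). Tnnc1 differed by -0.42 ± 0.08 (adjusted p = 0.000174) and Tnnt2 by -0.25 ± 0.10 (adjusted p = 0.0364). Myom1, Mybpc3 and Tnnc1 kept an adjusted p below 0.05 in all 41 settings in which the interaction was computed, Tnnt2 in 28 of them. Many of these settings leave out a single array, and none can part the casein HCM array set from its diet and genotype. Tnnt2 reached 0.229 with the sets of arrays as a block, 0.213 without set B of casein wild type and up to 0.0723 without 1 of 10 single arrays. After quantile normalization the 4 values were -0.74 for Myom1, -0.45 for Mybpc3, -0.37 for Tnnc1 and -0.17 for Tnnt2 (adjusted p = 0.0485 for the last), and without array 2 of male soy wild type -0.63, -0.48, -0.37 and -0.19. For the troponin I genes and tropomyosin no such difference passed: the 95% interval was -0.15 to 0.12 for Tnni3, -0.31 to 0.15 for Tnni1 and -0.29 to 0.16 for Tpm1.

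Averaged over both sexes and diets, 5 of 7 members were higher in HCM and 0 lower, where 32.8% of all probe sets passed, 17.2% higher and 15.6% lower. After quantile normalization Tnni3 (0.00, adjusted p = 0.942) and Tnnc1 (0.05, adjusted p = 0.193) no longer passed, and Mybpc3 passed as lower, at -0.14 (adjusted p = 0.000758), as it did with array weights, at -0.09 (adjusted p = 0.0192). Myom1 (0.37) and Tnnt2 (0.25) had the largest mean differences. For Mybpc3 the mean over diets was -0.05, since its responses as deposited were opposite.

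The casein diet was then compared with soy within each genotype. In wild type 6 members were higher on casein, and fetal troponin I was lower. In HCM 3 members were higher, Tnni3, Tpm1 and Tnnt2, and Tnni1 and Mybpc3 were lower. Of all probe sets 46% passed in wild type, 20.3% higher and 25.6% lower, and 61.1% in HCM, 29.8% higher and 31.3% lower. The wild-type comparison uses the soy wild-type arrays that also serve the HCM comparison on soy, and the HCM one the casein HCM arrays, so the values stand side by side and are not independent.

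In wild type the difference was 0.70 ± 0.09 for Myom1 (adjusted p = 3.16e-07), 0.46 ± 0.06 for Tnnt2 (adjusted p = 1.62e-06), 0.43 ± 0.06 for Tnnc1 (adjusted p = 6.25e-07) and 0.39 ± 0.04 for Tnni3 (adjusted p = 6.22e-08). All casein arrays of these 4 genes lay above all soy arrays, as they did for 5.55% of all probe sets. Tpm1 differed by 0.41 ± 0.07 (adjusted p = 5.25e-05) and Mybpc3 by 0.24 ± 0.05 (adjusted p = 0.00048). Quantile normalization lowered several of these, to 0.46 for Myom1, 0.22 for Tnnt2, 0.24 for Tnnc1 and 0.16 for Tnni3, all past the threshold, and took Mybpc3 to 0.04 (adjusted p = 0.517). Tpm1 became 0.46. Without array 2 of male soy wild type the values were 0.67 for Myom1, 0.40 for Tnnt2, 0.38 for Tnnc1, 0.36 for Tnni3, 0.36 for Tpm1 and 0.20 for Mybpc3, all past the threshold.

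In HCM the responses parted. Tnni3 rose by 0.37 ± 0.05 (adjusted p = 1.72e-07) and Tpm1 by 0.35 ± 0.08 (adjusted p = 0.000471), close to their wild-type values, and after quantile normalization by 0.22 and 0.32. Mybpc3 fell by 0.27 ± 0.06 (adjusted p = 0.000156), and by 0.42 after quantile normalization. Tnnt2 rose by 0.22 ± 0.07 (adjusted p = 0.00922), which became 0.05 (adjusted p = 0.424), and did not pass with the sets of arrays as a block (adjusted p = 0.108). The casein HCM arrays of Tnni3 and Tnnt2 all lay above the soy HCM arrays, as 19% of all probe sets did. Myom1 and Tnnc1 differed by 0.04 ± 0.09 (adjusted p = 0.716) and 0.01 ± 0.06 (adjusted p = 0.906) as deposited, and by -0.28 (adjusted p = 0.00276) and -0.13 (adjusted p = 0.00846) after quantile normalization, so the direction for these genes turns on the scaling.

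The troponin I pair moved in opposite directions with diet. Tnni1 had a lowest, median and highest value of 7.51, 7.78 and 8.25 in soy wild type, 7.54, 7.77 and 7.81 in soy HCM, 7.34, 7.55 and 7.64 in casein wild type and 7.04, 7.37 and 7.54 in casein HCM. Neighbouring groups overlapped throughout. It was lower on casein by 0.28 ± 0.08 in wild type (adjusted p = 0.00432) and by 0.36 ± 0.08 in HCM (adjusted p = 0.000566), and quantile normalization left these at -0.30 and -0.40. Without array 2 of male soy wild type the wild-type value was -0.21 (adjusted p = 0.00938). With the sets of arrays as a block the wild-type call was lost (adjusted p = 0.0821) and the HCM call kept (adjusted p = 0.0301). Tnni3 had 12.32, 12.54 and 12.63 in soy wild type, 12.58, 12.68 and 12.71 in soy HCM, 12.78, 12.93 and 12.99 in casein wild type and 12.95, 13.04 and 13.13 in casein HCM. Every casein array was thus above every soy array for Tnni3, whatever the genotype. The share of all probe sets that did so over both genotypes was not computed. Within a genotype it was 5.55% in wild type and 19% in HCM.

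The difference of the pair on each array, Tnni3 minus Tnni1, cancels any shift common to both probe sets, but not a wider spread of values on an array. The SD over all probe sets of an array was 1.65 to 1.77 on soy and 1.75 to 1.85 on casein. Beyond quantile normalization, its part in this difference was not tested. Only the change of Tnni3 minus Tnni1 between groups is read, since the probe sets' levels cannot be compared. The difference was 4.91, 4.07, 4.89 and 4.69 in male and 4.71, 5.04, 4.71 and 4.69 in female soy wild type, and 4.87, 4.77 and 5.10 in male and 4.87, 4.93 and 5.17 in female soy HCM. It was 5.57, 5.39, 5.50 and 5.38 in male and 5.22, 5.29, 5.27 and 5.47 in female casein wild type, and 5.55, 5.56, 6.10 and 5.74 in male and 5.58, 5.48, 5.68 and 5.76 in female casein HCM. All 14 soy arrays, 4.07 to 5.17, lay below all 16 casein arrays, 5.22 to 6.10. How often other pairs of probe sets part the diets in this way was not computed.

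The means ran from 4.72 ± 0.29 (SD, n = 8) in soy wild type through 4.95 ± 0.15 (n = 6) in soy HCM and 5.39 ± 0.12 (n = 8) in casein wild type to 5.68 ± 0.19 (n = 8) in casein HCM. The step from soy to casein was 0.67 ± 0.11 (SE) in wild type and 0.73 ± 0.10 in HCM. The step from wild type to HCM was 0.23 ± 0.13 on soy and 0.29 ± 0.08 on casein, against a pooled SD of 0.20 within groups. Without array 2 of male soy wild type the HCM step on soy was 0.14. No p-value was computed for this difference of members. In wild type the diet step joined a Tnni3 difference of 0.39 and a Tnni1 difference of -0.28. Quantile normalization reduced the HCM step to 0.08 on soy and 0.24 on casein and the diet step to 0.46 in wild type and 0.62 in HCM, and the soy (4.24 to 5.29) and casein (5.20 to 5.96) ranges then met.

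**Figure D3:**
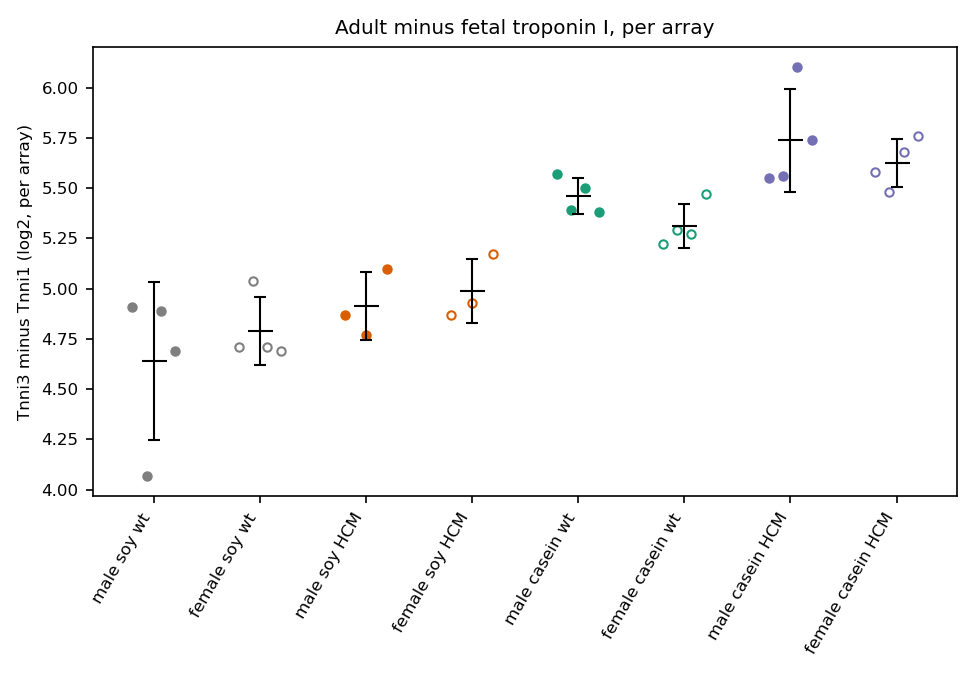
Tnni3 minus Tnni1 log2 value on each array, by group; points are arrays, filled for males and open for females, and bars give the group mean and SD. The soy arrays lie at 4.07 to 5.17 and the casein arrays at 5.22 to 6.10, and the lowest point is array 2 of male soy wild type.

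The probe sets of Tnnt2, Tnni3, Tnnc1 and Mybpc3, with lowest values of 11.55, 12.32, 11.96 and 12.26, read above the 99th percentile of every array, and that upper end differed by diet. The soy arrays, 10.64 to 11.11, and casein arrays, 11.14 to 11.53, did not overlap in that measure, as they did not for Tnni3. Beyond the quantile values given, the part of this difference between arrays in the diet results was not tested.

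**Figure D4:**
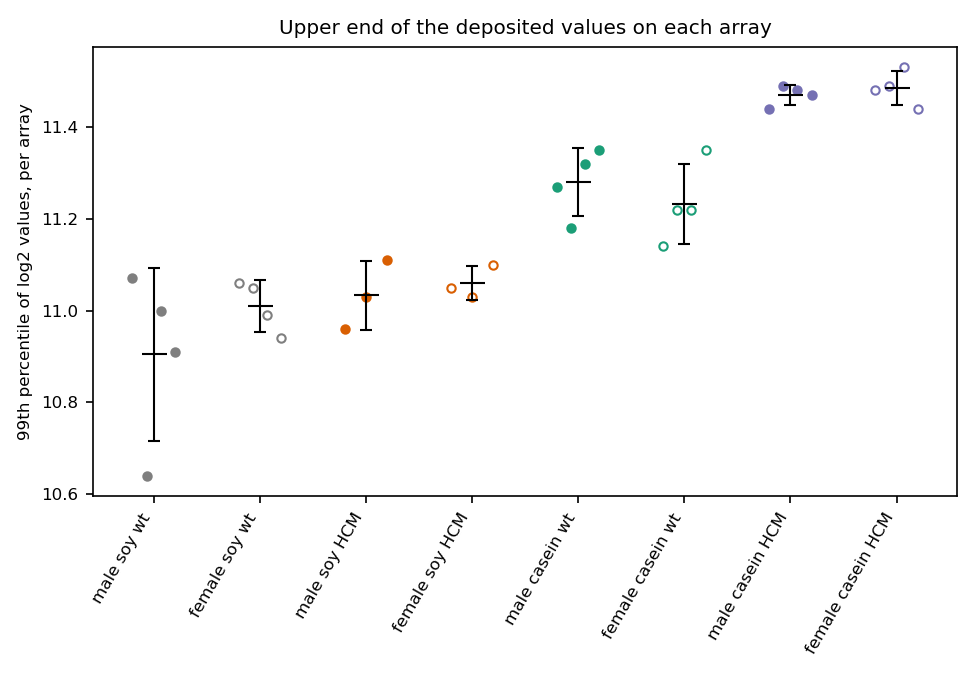
The 99th percentile of all probe sets on each array (log2), by group; points are arrays, filled for males and open for females, and bars give the group mean and SD. The soy arrays end at 11.11 and the casein arrays begin at 11.14.

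No member passed the test between the sexes. In the mean of the 4 pairs of male and female groups 0 of 7 members passed, 0 had an unadjusted p under 0.05 in limma, and 0.233% of all probe sets passed, 0.153% higher in females and 0.0805% lower. Myom1 had the largest mean value, -0.11 ± 0.06 (female minus male). The HCM response did not differ between the sexes for any member past the threshold, and 0% of all probe sets passed. The member nearest to it was Mybpc3, at -0.18 ± 0.08 (95% interval -0.34 to -0.02, adjusted p = 0.933), the 1 member with an unadjusted p under 0.05. For the diet response likewise 0 of 7 members and 0% of all probe sets passed, with Tnnc1 at -0.19 ± 0.08 (adjusted p = 0.318) the 1 member under 0.05 before adjustment.

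Other thin filament genes and skeletal isoforms, 10 measured of 15 listed, gave 3 higher and 1 lower in HCM on soy, where 24.7% of all probe sets passed, and 5 higher and 3 lower on casein, where 49% passed. Their median differences were 0.09 and 0.17, beside -0.01 and -0.00 over all probe sets. Skeletal actin Acta1, part of the fetal cardiac program, rose by 0.72 ± 0.25 on soy (adjusted p = 0.0356) and 1.54 ± 0.23 on casein (adjusted p = 3.27e-06). Slow skeletal troponin T, Tnnt1, rose by 0.77 ± 0.05 on casein (adjusted p = 6.22e-12) and stood at -0.05 on soy (adjusted p = 0.52). That rise in Tnnt1 came without one in Tnni1, the slow skeletal troponin I, at -0.17 on casein. On soy cardiac actin Actc1 rose by 0.33, the actin-severing Cfl2 by 0.44, and fast skeletal troponin C, Tnnc2, fell by 0.23. On casein Tpm4 rose by 0.37 and Tpm2, beta-tropomyosin, fell by 0.34.

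Of thick filament and M-band genes, 10 measured of 19 listed, 4 were higher and 2 lower in HCM on soy and 6 higher and 1 lower on casein, again beside 24.7% and 49% of all probe sets. The medians were 0.14 and 0.20. Slow myosin heavy chain Myh7 rose by 0.70 ± 0.15 on soy (adjusted p = 0.00181) and 1.30 ± 0.14 on casein (adjusted p = 2.82e-08). Myom2, the other myomesin measured, fell on casein by 0.44 ± 0.11 (adjusted p = 0.00119), where Myom1 did not pass, and stood at 0.13 on soy (adjusted p = 0.411). Ventricular light chains rose, Myl2 by 0.28 on soy and Myl3 by 0.42 on casein. The atrial light chain Myl7 fell by 1.32 ± 0.37 on soy (adjusted p = 0.0104) and rose by 1.58 ± 0.34 on casein (adjusted p = 0.00037). Myl4 fell by 0.32 on soy and rose by 0.39 ± 0.11 on casein (adjusted p = 0.00344). Of 4 atrial markers, which include these light chains, 0 were higher and 2 lower in HCM on soy, and 3 were higher and 0 lower on casein. Their mean per array was 7.47 to 8.01 in soy wild type, 7.17 to 7.70 in soy HCM, 6.82 to 7.65 in casein wild type and 7.51 to 8.58 in casein HCM, and the part of atrial tissue in the results was not tested.

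Kinases and phosphatases that act on troponin I and myosin-binding protein C were measured for 17 of 21 listed genes. In HCM 6 were higher and 0 lower on soy, and 4 were higher and 5 lower on casein, with medians of 0.08 and 0.02. Of all probe sets 24.7% passed on soy and 49% on casein, and the count on casein, 9 of 17, lay near that background. Prkacb, a catalytic subunit of protein kinase A, rose by 0.30 ± 0.08 on soy (adjusted p = 0.00995) and fell by 0.36 ± 0.08 on casein (adjusted p = 0.000292). The phosphatase subunit Ppp1cb rose by 0.60 ± 0.20 on soy (adjusted p = 0.0287) and by 1.15 ± 0.18 on casein (adjusted p = 8.61e-06). Camk2d (0.37) and the phosphatase subunit Ppp2r5a (0.39) rose on soy, and Ppp1cc (0.30) and Ppp2cb (0.28) on casein.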

How the data were processed

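Left ventricle RNA was hybridized to MG_U74Av2 arrays. The authors deposited 1 log2 value for each probe set and array. The submitters' processing notes name RMA and, as software, Affymetrix Expression Console; versions and settings are not given. As a method RMA usually includes quantile normalization, but the deposited array distributions differ. Detection calls were not used here.

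Of 12488 probe sets 66 controls were left out, and 12422 were fitted in limma (R 4.3.3, limma 3.58.1, statmod 1.5.0) with 1 coefficient per group over all 30 arrays, 22 residual and 5.86 prior degrees of freedom. Two-sided tests were used, with Benjamini-Hochberg adjustment over all probe sets within a comparison and a threshold of 0.05. The script was tested on simulated data. The number of arrays limits the precision. Every member is named; from the lists of other genes, up to 4 with the largest change past the threshold were named per HCM comparison, and for 4 members the 3 genes with the highest Pearson correlation over the arrays. Named beyond that rule, after their values were seen, were Tnnt1 on soy, Myom2 on soy and Myl4 on casein. Members and lists were chosen with earlier results of these data known. Alternatives were normalizations, filters, array weights, blocks, sets and arrays left out.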

Additional observations from a re-analysis of the deposited data

Results flagged for a closer look

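In 48 groups of 4 arrays, 3 values stood apart by Dixon's criterion at the 95% level, where chance marks about 5% of groups. Tpm1 on array 4 of female soy wild type read 6.51, against 6.84, 6.86 and 6.89 on the others. Mybpc3 on array 2 of male soy wild type read 12.29, against 12.57, 12.58 and 12.62. Tnni3 minus Tnni1 on array 2 of female soy wild type was 5.04, against 4.69, 4.71 and 4.71.

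In 4 members the response to HCM differed on the 2 diets by the interaction in limma (casein minus soy): Myom1 by -0.65 (adjusted p = 0.000171), Mybpc3 by -0.52 (adjusted p = 5.76e-06), Tnnc1 by -0.42 (adjusted p = 0.000174) and Tnnt2 by -0.25 (adjusted p = 0.0364). The control RNAs also set the casein HCM arrays apart, so diet, genotype and array set cannot be told apart here.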

How the results depend on the processing

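When the sets of arrays were treated as a random block (consensus correlation 0.179), 2 members passed in HCM on soy (6 as reported), 2 in the mean over strata (5) and 1 on casein (2). The share of all probe sets that passed fell as well, to 2.76%, 9.61% and 27.3%. Only casein wild type was split into sets A and B, so the block cannot part a set from its diet and genotype. Adding quantile normalization to that block, chosen after seeing the data, gave 3, 3 and 1, beside 4.62%, 12% and 29.3% of all probe sets. On casein 1 member passed without set A of casein wild type (44.4% of all probe sets) and 5 with only the groups compared (49.4%). On soy, fitting only the groups compared left 4 of 6 (20.7%). Leaving out single arrays gave 1 to 5 members on casein and 4 to 6 on soy, where 17.2% to 27.5% of all probe sets passed. On casein 5 members passed without array 2 of male soy wild type (54.4% of all probe sets). There were 4 without array 1 of male casein wild type (47.4%) and 1 without array 1 of female casein wild type (47%). Quantile normalization took the diet step of Tnni3 minus Tnni1 in wild type to 0.46. It reversed Tnni3 in HCM on soy (-0.03, and -0.03 with the set block), Tnnc1 for diet in HCM (-0.13) and Myom1 for diet in HCM (-0.28, and -0.28 with the set block). The cause was not tested. Over single members 2538 values kept their side of the threshold, 57 lost and 25 gained the threshold, and 5 reversed. Values that passed in neither case could cross 0 and still count among the 2538. One such case was Tnni1 between the sexes, -0.03 to 0.03 with single arrays left out.

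Replicate numbers did not pair the arrays: deviations of 99 pairs with the same number had a median correlation of -0.01 (21 over 0.1). A replicate block took Tpm1 in HCM on soy to 0.22 (adjusted p = 0.0537), and 5 members then passed, beside 21.8% of all probe sets. It changed no other call of a member. No alternative probe set of Tnni3 or Tnni1 could be tried, since each has 1.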

Other observations

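The genes whose log2 values followed a member most closely over the 30 arrays are given as a description; the arrays share diet, genotype and array sets. Myom1 was followed most closely by Sspn, sarcospan of the dystrophin complex (Pearson r = 0.912), then Mccc1 (0.893) and Atf6 (0.872). Tnnt2 was followed by the respiratory chain genes Cox6c (0.944) and Atp5a1 (0.932), and by Cdv3 (0.929). Tnni3 was followed by Mob1b (0.95), Anapc13 (0.94) and Tmem134 (0.94), and Tnni1 by Alx4 (0.905), Crb3 (0.897) and Phf7 (0.882).

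Among the members, Mybpc3 correlated with Tnnt2 at r = 0.28 over the 30 arrays and at 0.78 within groups, and with Tnni3 at 0.05 and 0.60. Tnni3 and Tnni1 correlated at -0.84 over all arrays and at -0.52 within groups.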
